A study of Mus musculus with 9 samples.

Results

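Zfp is the symbol prefix given to mouse genes of C2H2-type and related zinc finger proteins. The genes described here are the 168 whose symbol is Zfp followed by digits alone and whose FPKM reached at least 0.5 in 1 or more of the 3 groups of the study, out of 340 genes with such a symbol and 23285 genes in the whole table. FPKM is the number of sequenced fragments scaled to transcript length and to the mapped fragments of the library, and it therefore compares levels between genes per unit length. The members were chosen by these group levels, so the levels are a description. A gene that is high in 1 group alone could enter through that group, and counts of changed members therefore support nothing by themselves.

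RNA was sequenced from immature erythroid cells of C57BL/6 mouse bone marrow in 3 groups of 3 libraries each, all from animals homozygous for a floxed Trim28 gene. KOb cells came from TRIM28(flox/flox):Mx1Cre mice, were CD71(hi)TER119- and are labelled severely deleted. KOa cells came from mice of the same genotype, were CD71(hi)TER119+ and are labelled modestly deleted. FFa cells, the control, came from TRIM28(flox/flox) mice without Cre and were CD71(hi)TER119+. Mx1Cre is switched on by interferon, for which poly(I:C) was injected 5 times, with analysis 2 weeks later. The Mx1 promoter is also active in other blood cells, and injection of FFa mice is not given in the labels. The series description gives 1 to 4% of the gene undeleted in KOb and 5 to 8% in KOa, and residual mRNA of 18% in KOb and 26% in KOa. Whether each library is a mouse of its own is not given either.

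TRIM28 is a corepressor without DNA binding of its own. Many zinc finger proteins carry a KRAB box, which binds TRIM28, and an array of C2H2 fingers that reads DNA. TRIM28 then brings in the histone H3 lysine 9 methyltransferase SETDB1 and heterochromatin proteins, a system best known for silencing retroelements and imprinted alleles. KRAB zinc finger genes lie in chromosomal clusters that carry such heterochromatin themselves in many cell types. Other Zfp-named genes have no KRAB box and encode transcription factors, chromatin cofactors, or RNA-binding and ribosome factors.

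Trim28 itself had an FPKM of 4.76 in KOb, 6.64 in KOa and 26.0 in FFa. All 10 measured erythroid identity markers of a list of 12 were at 1 FPKM or more in every group. Their summed FPKM was 3029 in KOb, 4686 in KOa and 5644 in FFa. Markers of other blood cells differed between the groups as well. The summed FPKM of 14 B cell markers was 25.4 in KOb, 27.5 in KOa and 282 in FFa. That of 16 granulocyte markers was 13472 in KOb, 16622 in KOa and 48903 in FFa, and that of 14 macrophage and monocyte markers 102, 114 and 393 in the same order. Megakaryocyte markers summed to 59.1 in KOb, 71.1 in KOa and 39.5 in FFa, and T and NK cell markers to 19.1, 21.1 and 26.4. No marker on these lists was at 0 in any group, and the part of these cells in the results below was not tested. In such bulk samples, fewer cells of a type and less RNA per cell cannot be told apart.

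Promoters are shown first for some of the members called the same way in both mutant groups, because the later sections return to these genes. They are those with the largest rises and deepest falls by log2 ratio in KOa against FFa, and the order in KOb differs. Each is the 250 bases before the RefSeq start site nearest to the deposited locus, read 5′ to 3′ on the strand of the gene in GRCm38.p6, the assembly behind mm10, with every CpG in capitals. Zfp954 (chr7:7121477-7121726, minus strand), Zfp324 (chr7:12965588-12965837, plus strand), Zfp27 (chr7:29906105-29906354, minus strand) and Zfp959 (chr17:55891843-55892092, plus strand) were higher in both mutant groups. Zfp787 (chr7:6155966-6156215, minus strand) and Zfp710 (chr7:80024564-80024813, plus strand) were lower in both. Zfp324 and Zfp27 were named after their values were seen, since their highest level is under 1 FPKM.
Zfp954: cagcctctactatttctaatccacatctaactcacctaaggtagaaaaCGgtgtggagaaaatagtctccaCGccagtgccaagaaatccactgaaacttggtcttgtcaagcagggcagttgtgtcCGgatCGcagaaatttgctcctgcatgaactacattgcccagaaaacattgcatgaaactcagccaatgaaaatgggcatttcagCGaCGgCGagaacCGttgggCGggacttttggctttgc
Zfp324: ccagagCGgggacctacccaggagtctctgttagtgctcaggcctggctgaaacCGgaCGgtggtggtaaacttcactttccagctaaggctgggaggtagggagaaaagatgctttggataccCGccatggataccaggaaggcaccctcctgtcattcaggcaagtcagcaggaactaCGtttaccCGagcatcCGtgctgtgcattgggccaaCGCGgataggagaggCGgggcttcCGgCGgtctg
Zfp27: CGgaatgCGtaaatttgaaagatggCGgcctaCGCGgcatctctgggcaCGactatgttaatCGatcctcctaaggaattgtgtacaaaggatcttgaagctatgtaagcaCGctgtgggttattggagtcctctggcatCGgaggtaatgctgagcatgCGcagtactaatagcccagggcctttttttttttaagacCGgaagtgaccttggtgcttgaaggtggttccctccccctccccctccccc
Zfp959: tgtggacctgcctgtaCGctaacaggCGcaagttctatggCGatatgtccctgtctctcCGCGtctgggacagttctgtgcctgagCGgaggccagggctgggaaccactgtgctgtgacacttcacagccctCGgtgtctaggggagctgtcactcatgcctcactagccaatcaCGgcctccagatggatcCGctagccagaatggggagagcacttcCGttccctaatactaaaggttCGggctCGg
Zfp787: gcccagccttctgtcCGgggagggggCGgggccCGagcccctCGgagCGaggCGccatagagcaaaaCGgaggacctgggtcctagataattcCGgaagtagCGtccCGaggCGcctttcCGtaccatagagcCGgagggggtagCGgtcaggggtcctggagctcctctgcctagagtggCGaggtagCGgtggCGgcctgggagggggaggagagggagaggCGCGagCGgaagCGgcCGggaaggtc
Zfp710: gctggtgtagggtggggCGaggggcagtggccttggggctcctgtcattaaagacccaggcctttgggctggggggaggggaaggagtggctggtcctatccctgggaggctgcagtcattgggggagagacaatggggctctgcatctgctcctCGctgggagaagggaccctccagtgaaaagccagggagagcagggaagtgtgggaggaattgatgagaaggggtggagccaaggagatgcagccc

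These windows held 9, 12, 11 and 12 CpGs in Zfp954, Zfp324, Zfp27 and Zfp959, and 22 and 2 in Zfp787 and Zfp710. A RefSeq promoter on the same chromosome was found for 138 members. Their median was 13 CpGs in the 250 bases, against 6.0 over all 32851 promoters of the table. That background holds genes of any level, whereas the members were chosen by expression. No background matched for expression was used, for CpGs or for the hexamers below. Members with a KRAB-like stretch (defined below) had a median of 9.5 CpGs over 58 promoters and the other members 15.5 over 80. The hexamers AGATAA and TGATAA, forms of the GATA motif, were searched on both strands. Among the promoters shown, only that of Zfp787 held one. They occurred in 10.1% of the members' windows and in 16.6% of all windows, which describes letters and not binding.

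At least 0.5 FPKM was reached by 158 members in KOb, 154 in KOa and 148 in FFa, and by 135 in all 3 groups. The minimum was met in 1 or both mutant groups but not in FFa by 20 members, and in FFa alone by 6. Most members were expressed weakly. The median FPKM was 1.54 in KOb, 1.35 in KOa and 1.49 in FFa, and 10 FPKM or more was reached by 6, 7 and 6 members in these groups. Just inside the minimum were Zfp189, Zfp945 and Zfp516, whose highest group values were 0.503, 0.511 and 0.533 FPKM. Just outside were Zfp446, Zfp251 and Zfp934, with 0.499, 0.499 and 0.499 FPKM.

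The most abundant member was Zfp207, which encodes a kinetochore and spindle protein, at 61.3 FPKM in KOb, 60.1 in KOa and 55.4 in FFa. Zfp672 followed, with 35.1 FPKM in KOb, 50.4 in KOa and 45.2 in FFa. Zfp91, the gene of a ubiquitin ligase of the noncanonical NF-kappaB pathway, had 28.8 FPKM in KOb, 32.5 in KOa and 24.5 in FFa. Its locus carries a second table entry that joins it with another gene, so the split of its reads is uncertain. Zfp800 (20.7, 16.6 and 17.6 FPKM in KOb, KOa and FFa) and Zfp526 (10.9, 15.8 and 14.4) came next. Zfp39, the most abundant member with a KRAB-like stretch, had 10.1 FPKM in KOb, 11.6 in KOa and 12.1 in FFa. None of these 6 genes was called in a mutant group against FFa. The transcription factor gene Zfp410, whose product activates the remodeller gene Chd4, was at 9.19, 8.83 and 8.92 FPKM in KOb, KOa and FFa, and its log2 ratios to FFa were 0.04 ± 0.32 and -0.01 ± 0.32 in KOb and KOa.

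Every log2 ratio, q and FPKM given here is from the authors' deposited table, with 1 value per gene and group, so no SD is available. The ± after a log2 ratio is the standard error implied by the deposited test statistic. A gene is called here where the deposited Cuffdiff test was completed and its q is below 0.05. Both comparisons with the control share the FFa libraries, and the third shares both mutant groups with them, so their values are set side by side and no overlap is read as evidence.

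Against FFa, 8 members were called higher in both mutant groups and 5 lower in both. Of the 9893 genes with at least 0.5 FPKM in a group that were tested in both comparisons, 4.98% were higher in both and 9.78% lower in both. Zfp954, Zfp324 and Zfp27 were below the FPKM minimum in FFa and became members through the mutant groups alone, so a higher mutant level was fixed by the choice of members. Zfp954 had 1.42 FPKM in KOb and 1.19 in KOa, against 0.216 in FFa. Its log2 ratio was 2.72 ± 0.88 in KOb and 2.46 ± 0.89 in KOa, the highest of all members in either comparison. Zfp324 had 0.867 FPKM in KOb and 0.939 in KOa, against 0.206 in FFa, and rose by 2.07 ± 0.69 and 2.19 ± 0.69. Zfp27, with 21 C2H2 fingers in its protein, had 0.647 FPKM in KOb and 0.713 in KOa, against 0.232 in FFa (1.48 ± 0.79 and 1.62 ± 0.78). The ratio of Zfp27 in KOb is less than 2 times its implied error, and its calls in both mutant groups were lost when p was taken from the statistic under a normal distribution.

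Zfp959 had 3.83 FPKM in KOb and 3.44 in KOa, against 1.35 in FFa, and rose by 1.50 ± 0.45 in KOb and 1.35 ± 0.45 in KOa. Of its transcript, 21.3% of the 50-base words also occur in another gene, mostly Zfp119b, so its reads may be shared. Zfp958 had 2.16 FPKM in KOb and 1.75 in KOa, against 0.773 in FFa (1.49 ± 0.52 and 1.18 ± 0.53). Zfp426 had 2.87 FPKM in KOb and 3.45 in KOa, against 1.67 in FFa (0.78 ± 0.40 and 1.05 ± 0.39). Zfp110, which encodes a factor that interacts with the p75 neurotrophin receptor, had 2.88 FPKM in KOb and 2.80 in KOa, against 1.66 in FFa (0.79 ± 0.37 and 0.75 ± 0.37). Zfp869 was the most abundant of the 8, with 4.97 FPKM in KOb and 5.05 in KOa, against 3.30 in FFa (0.59 ± 0.35 and 0.61 ± 0.35). For none of these 8 genes did KOb and KOa differ by the call rule, and their log2 ratios between the mutants ran from -0.27 to 0.30. With p from the normal distribution, Zfp324 and Zfp959 kept both calls and Zfp954 kept that in KOb. Zfp958, Zfp426, Zfp110 and Zfp869 lost both, as Zfp27 did. The ratio of Zfp869 was 1.68 times its implied error in KOb and 1.74 times in KOa, and that of Zfp426 1.97 times in KOb.

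The 5 members lower in both mutant groups have no KRAB-like stretch. Zfp36 encodes tristetraprolin, which binds AU-rich elements and promotes mRNA decay. It had 4.56 FPKM in KOb and 5.16 in KOa, against 9.89 in FFa, and fell by 1.12 ± 0.33 in KOb and by 0.94 ± 0.32 in KOa. Zfp710 had 1.50 FPKM in KOb and 1.22 in KOa, against 2.99 in FFa, with log2 ratios of -0.99 ± 0.37 and -1.30 ± 0.39; its locus overlaps that of another gene. Zfp787 had 1.48 FPKM in KOb and 0.992 in KOa, against 2.80 in FFa (-0.93 ± 0.45 and -1.50 ± 0.50). Zfp238, now named Zbtb18 and the gene of a BTB-type repressor of neural development, had 1.35 FPKM in KOb and 1.23 in KOa, against 2.68 in FFa (-0.99 ± 0.40 and -1.12 ± 0.41). Zfp608 had 0.557 FPKM in KOb and 0.487 in KOa, against 0.998 in FFa (-0.84 ± 0.44 and -1.04 ± 0.46). With p from the normal distribution, Zfp36 kept its call in KOb alone, and Zfp710 and Zfp787 kept theirs in KOa alone. Zfp238 and Zfp608 lost both calls. The B cell, granulocyte and macrophage marker sums given above were lower in both mutant groups as well. A few abundant genes carry the granulocyte sum: of its 16 markers 9 were lower and 2 higher in KOb, and 7 were lower and 2 higher in KOa. The 2 higher in both were Ctsg (log2 ratio 2.59 in KOb and 2.24 in KOa) and Mpo (1.75 and 1.41). Whether those cells contributed to these 5 falls was not tested.

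**Figure D1:**
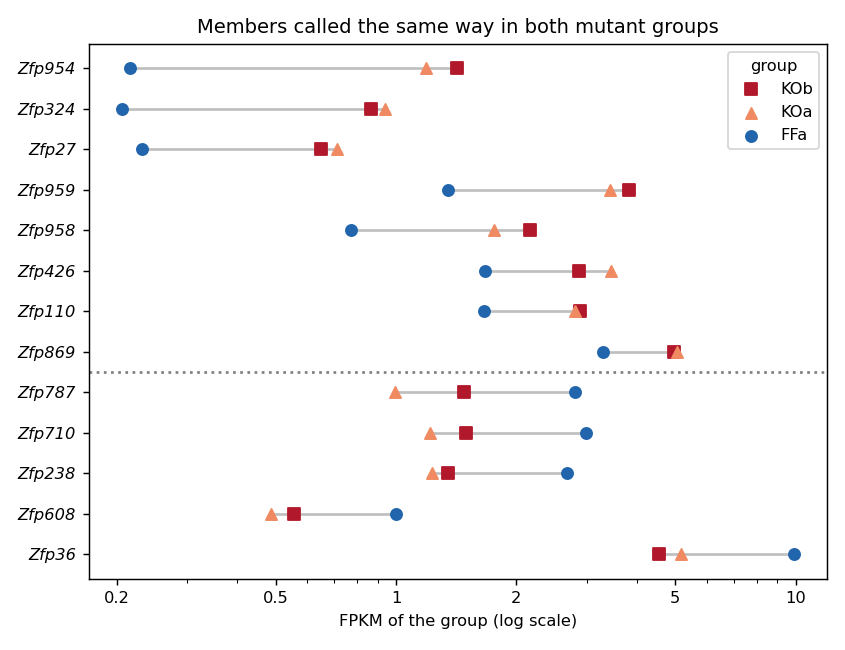
FPKM (log axis) of the 13 members called the same way in both mutant groups, with 1 point per group: KOb squares, KOa triangles and FFa circles; the dotted line parts the 8 higher from the 5 lower members. The choice of these genes puts both mutant points on 1 side of FFa in each. Values run from 1.42 and 1.19 against 0.216 FPKM in Zfp954 to 4.56 and 5.16 against 9.89 FPKM in Zfp36.

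In KOa against FFa, sorted through the same gate, 12 members were higher and 11 lower of 168 tested. Over all 9970 tested genes with at least 0.5 FPKM in a group, 8.29% were higher and 14.9% lower, and among the members 7.14% and 6.55%. The share of members called higher was close to that over all genes, and the share called lower was smaller. Members had a median log2 ratio of -0.01, or 0.04 when centred on the median of genes with at least 1 FPKM in both groups. All tested genes of any level had a median of -0.08. Besides the genes above, Zfp488 rose, with 7.34 FPKM in KOa against 2.31 in FFa (1.67 ± 0.41). It is known as a partner of OLIG2 in oligodendrocytes. Zfp691 (3.08 FPKM in KOa against 1.39 in FFa, 1.15 ± 0.54), Zfp414 (11.4 against 7.53, 0.59 ± 0.37) and Zfp68 (3.08 against 2.12, 0.54 ± 0.36) rose too. The log2 ratios of these 3 genes in KOb were 0.74 ± 0.55, -0.11 ± 0.39 and 0.46 ± 0.36, none of them called. Of the Zfp414 transcript, 25% of the 50-base words occur in another gene too.

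The deepest fall in KOa was that of Zfp777, with 0.378 FPKM in KOa against 1.41 in FFa (-1.90 ± 0.62). Zfp692 had 2.95 FPKM in KOa against 6.54 in FFa (-1.15 ± 0.39), and Zfp422 0.846 against 1.75 (-1.05 ± 0.47). Zfp213 (0.835 FPKM in KOa against 1.67 in FFa) and Zfp386 (0.791 against 1.55, -0.97 ± 0.63) fell as well. In KOb the log2 ratios to FFa of Zfp777 and Zfp692 were -0.58 ± 0.47 and -0.47 ± 0.36, neither of them called.

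In KOb against FFa, where the gate differs together with the degree of deletion, 21 members were higher and 12 lower of 167 tested. Over all 9952 tested genes at that minimum 13.4% were higher and 15.7% lower, and among the members 12.6% and 7.19%. The share called higher was again close to that over all genes. The median log2 ratio was 0.11 over the members and -0.01 over all tested genes of any level. Zfp106, the gene of an RNA-binding protein needed in motor neurons and muscle, had 5.29 FPKM in KOb against 2.56 in FFa (1.04 ± 0.30). Zfp445, which encodes a KRAB protein that maintains imprints, had 2.34 FPKM in KOb against 1.32 in FFa (0.83 ± 0.35). Zfp593, whose yeast counterpart acts in the export of the large ribosomal subunit, had 1.81 FPKM in KOb against 0.690 in FFa (1.39 ± 0.62), but its locus overlaps that of another gene.

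Zfp318, needed in B cells for surface IgD, had 0.782 FPKM in KOb against 0.327 in FFa (1.26 ± 0.50), while the summed B cell markers were lower in KOb. Because Zfp318 reached the FPKM minimum in KOb alone, a higher level there was fixed by the choice of members. Zfp828, now named Champ1 and the gene of a kinetochore attachment protein, had 1.51 FPKM in KOb against 0.826 in FFa (0.87 ± 0.44). Zfp639 (5.74 FPKM in KOb against 3.47 in FFa, 0.73 ± 0.38), Zfp101 (4.22 against 2.79, 0.60 ± 0.36) and Zfp131 (6.98 against 4.78, 0.55 ± 0.32) rose by less. Among the falls outside the shared genes, Zfp341, whose human counterpart activates STAT3 transcription, had 1.56 FPKM in KOb against 2.99 in FFa (-0.94 ± 0.38). Zfp703 (1.33 FPKM in KOb against 2.56 in FFa, -0.94 ± 0.43), Zfp41 (0.861 against 1.51, -0.81 ± 0.47) and Zfp821 (2.83 against 4.49, -0.67 ± 0.40) fell as well.

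The translated GENCODE coding sequences were searched for the KRAB-A box at 13 conserved positions, and a protein matching at least 9 of them is called KRAB-like here. The matches fell into a low and a high group. Of the 168 members, 66 were KRAB-like, 60 of them with 12 or 13 matches, and 99 of the other 102 had 6 or fewer. KRAB-like proteins held a median of 11.5 C2H2 fingers (2 to 23) and the others 7.0 (0 to 41). The search gave no C2H2 finger in Zfp36, a CCCH-type protein, among others. KRAB-like members were expressed at lower levels, with a median FPKM of 1.23 in KOb, 0.935 in KOa and 0.988 in FFa, against 1.77, 1.69 and 1.96 in the other members.

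In KOb against FFa, 12 KRAB-like members were higher and 1 lower of 65 tested, and 9 other members were higher and 11 lower of 102. As shares, 18.5% of the KRAB-like members were higher and 1.54% lower, and 8.82% and 10.8% of the others, beside 13.4% and 15.7% of all tested genes at the minimum. The lower one was Zfp689, with 0.741 FPKM in KOb against 1.33 in FFa (-0.84 ± 0.47). The median log2 ratio was 0.32 in the KRAB-like members and -0.00 in the others. Ratios above 0 numbered 45 of 65 in the KRAB-like members and 50 of 102 in the others. Over all tested genes of any level, 5180 ratios were above 0 and 5371 below. At an unadjusted p below 0.05 by the authors' Cuffdiff test, 19 KRAB-like members were higher and 6 lower. Of the others 17 were higher and 23 lower at that p, beside 1983 and 2223 of all 10584 tested genes. In KOa against FFa, 8 KRAB-like members were higher and 2 lower of 66, and 4 other members were higher and 9 lower of 102. The shares higher and lower were 12.1% and 3.03% in the KRAB-like members and 3.92% and 8.82% in the others, beside 8.29% and 14.9% of all tested genes at the minimum. The 2 lower ones were Zfp777 and Zfp386. The median log2 ratio was 0.12 in the KRAB-like members and -0.05 in the others. Ratios above 0 numbered 38 of 66 in the KRAB-like members and 44 of 102 in the others. Over all tested genes of any level, 4625 ratios were above 0 and 6056 below. At an unadjusted p below 0.05 by the authors' Cuffdiff test, 14 KRAB-like members were higher and 2 lower. Of the others 7 were higher and 12 lower at that p, beside 1340 and 2129 of all 10761 tested genes. With p taken from the statistic under a normal distribution, 3 KRAB-like members remained higher in KOb and 2 in KOa. No test of the difference between the classes was run, since the members were chosen by their levels and the 2 comparisons share the FFa libraries. Among the KRAB-like rises, Zfp954, Zfp324 and Zfp846 passed the FPKM minimum through the mutant groups alone. Among the other members Zfp27 did so, and Zfp318 through KOb alone. Of the falls in that class, Zfp516 and Zfp629 in KOb and Zfp523 in KOa passed through FFa alone. The direction of these calls was fixed by the choice of members, which therefore sets the contrast between the classes in part.

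**Figure D2:**
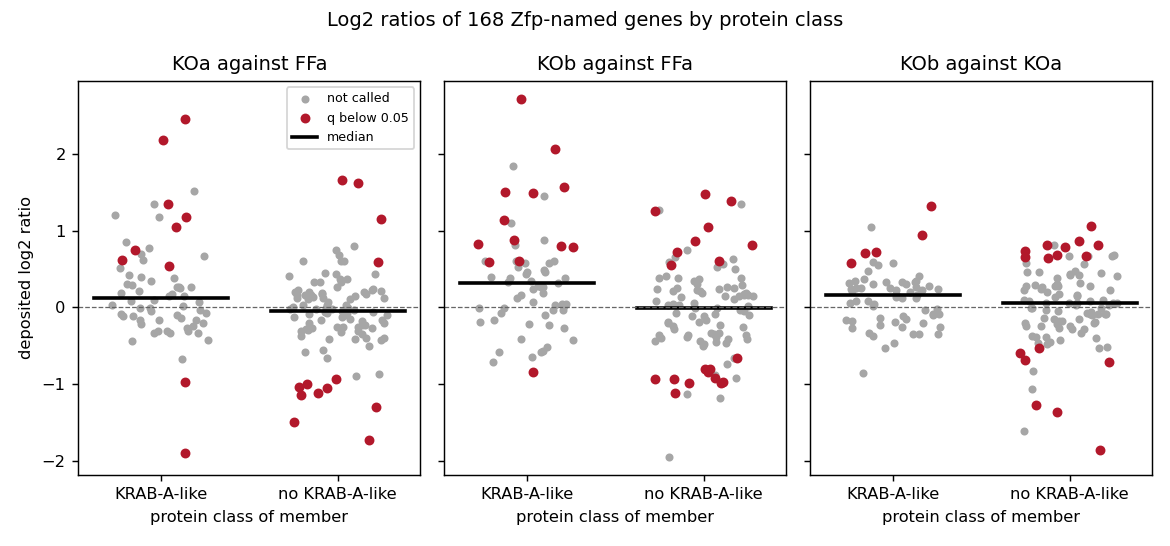
Deposited log2 ratios (y axis) of the members in the 3 comparisons, by whether the protein has a KRAB-A-like stretch; each point is 1 gene, red where q is below 0.05, and the bar is the class median. In KOb against FFa the KRAB-like median lies at 0.32 and 1 red point lies below 0, while the other class has its median at -0.00 and 11 red points below 0. Against FFa, the choice of members fixed the sign of Zfp954, Zfp324 and Zfp846, which passed the FPKM minimum through the mutant groups alone. In the other class it fixed that of Zfp27 in the same way, and of Zfp516, Zfp523 and Zfp629, which passed through FFa alone.

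The called counts of the role lists that follow stand beside shares over all tested genes at the FPKM minimum. In KOb against FFa 13.4% of these were higher and 15.7% lower, and in KOa against FFa 8.29% and 14.9%. Unadjusted p below 0.05 by the authors' Cuffdiff test was reached by more of all tested genes of any level. In KOb 1983 were higher and 2223 lower of 10584, and in KOa 1340 and 2129 of 10761. A list of silencing and KRAB factors with known retroelement, imprinting or gene targets held 8 members, Zfp91 among them. Of these, 1 rose in KOb, Zfp445, and 0 fell, and in KOa 0 were called in either direction by the authors' Cuffdiff test. Unadjusted p below 0.05 was reached by 3 in KOb, all higher, and by 0 in KOa. The median log2 ratio of the list was 0.69 in KOb and 0.18 in KOa. Zfp809, which recruits TRIM28 to proviruses of murine leukaemia virus, had 3.75 FPKM in KOb and 2.99 in KOa, against 1.05 in FFa. Its log2 ratios were 1.84 ± 2.73 and 1.51 ± 2.88, so a value almost 3 times that of FFa in KOa lay within its error, and its locus overlaps those of other genes. Zfp932, which represses retroelements in mouse embryonic stem cells, had 1.52 FPKM in KOb and 0.793 in KOa, against 0.872 in FFa. It was called in KOb against KOa alone (0.94 ± 0.56), and 55.5% of its 50-base words also occur in another gene, mostly Gm15446. Zfp746, the KRAB gene of a repressor of Ppargc1a, had 3.06 FPKM in KOb, 2.80 in KOa and 3.01 in FFa.

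Of 12 chromatin cofactor genes without KRAB, 0 rose in either mutant group, 2 fell in KOb and 1 fell in KOa. At an unadjusted p below 0.05, 0 were higher and 4 lower in KOb, and 1 was higher and 2 lower in KOa. The falls were those of Zfp608 and, in KOb, of Zfp516, a brown fat factor gene. Zfp516 had 0.306 FPKM in KOb against 0.533 in FFa (-0.80 ± 0.52), at a locus that overlaps another gene. It reached the FPKM minimum in FFa alone, so a lower mutant level was fixed by the choice of members. Zfp644, a partner gene of the G9a and GLP methyltransferases, had 6.92 FPKM in KOb, 5.91 in KOa and 6.64 in FFa. Of 13 general transcription factor genes, 2 rose in KOb, Zfp318 and Zfp131, and 0 fell by the authors' Cuffdiff test, with 2 higher and 2 lower at an unadjusted p below 0.05. In KOa 0 of the 13 were called, also at an unadjusted p below 0.05. Zfp143, which activates snRNA and many housekeeping promoters, had 5.62 FPKM in KOb, 5.25 in KOa and 5.83 in FFa.

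Of 10 RNA, translation and spindle genes, 3 rose and 1 fell in KOb, and 0 rose and 1 fell in KOa, where unadjusted p below 0.05 was also reached by 0 higher and 1 lower gene. The fall was Zfp36 in both. The rises in KOb were Zfp106, Zfp326, a gene of the DBIRD complex of splicing, and Zfp259. Zfp326 had 1.77 FPKM in KOb against 1.01 in FFa (0.82 ± 0.53). Zfp259, now named Zpr1, encodes a partner of the elongation factor eEF1A and had 5.02 FPKM in KOb against 3.31 in FFa (0.60 ± 0.33). Zfp598, the ubiquitin ligase gene of collided ribosomes, had 4.22 FPKM in KOb, 3.60 in KOa and 3.51 in FFa.

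Between the mutants, 15 members were higher in KOb than in KOa and 7 lower of 168 tested. Over all 9808 tested genes at the FPKM minimum 10.7% were higher and 6.44% lower, and among the members 8.93% and 4.17%. The median log2 ratio was 0.08 over the members and 0.05 over all tested genes of any level. Of 66 KRAB-like members 5 were higher and 0 lower by the authors' Cuffdiff test, and 7 and 0 at an unadjusted p below 0.05. Of 102 others 10 were higher and 7 lower by that test. Over all 10468 tested genes of any level, 1735 were higher and 1189 lower at an unadjusted p below 0.05. Zfp488 differed most, with 2.02 FPKM in KOb against 7.34 in KOa (-1.86 ± 0.39), so that KOb lay beside FFa at 2.31. Of its transcript, 15% of the 50-base words occur in another gene as well.

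Zfp777 had 0.943 FPKM in KOb against 0.378 in KOa (1.32 ± 0.64), with FFa above both. Zfp593 (1.81 FPKM in KOb against 0.864 in KOa, 1.06 ± 0.59), Zfp259 (5.02 against 2.76, 0.86 ± 0.34) and Zfp106 (5.29 against 3.01, 0.81 ± 0.30) were higher in KOb. Zfp652, whose human counterpart binds the corepressor CBFA2T3, had 8.41 FPKM in KOb against 5.41 in KOa (0.64 ± 0.31). Zfp451, a SUMO ligase gene, had 1.63 FPKM in KOb against 0.986 in KOa (0.73 ± 0.43). Lower in KOb were Zfp768 (0.523 FPKM in KOb against 1.26 in KOa, -1.27 ± 0.63), Zfp414 (6.96 against 11.4, -0.71 ± 0.38) and Zfp526 (10.9 against 15.8, -0.54 ± 0.29). The erythroid marker sum was also lower in KOb than in KOa, and the part of the gate in these differences cannot be told apart from that of the deletion.

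**Figure D3:**
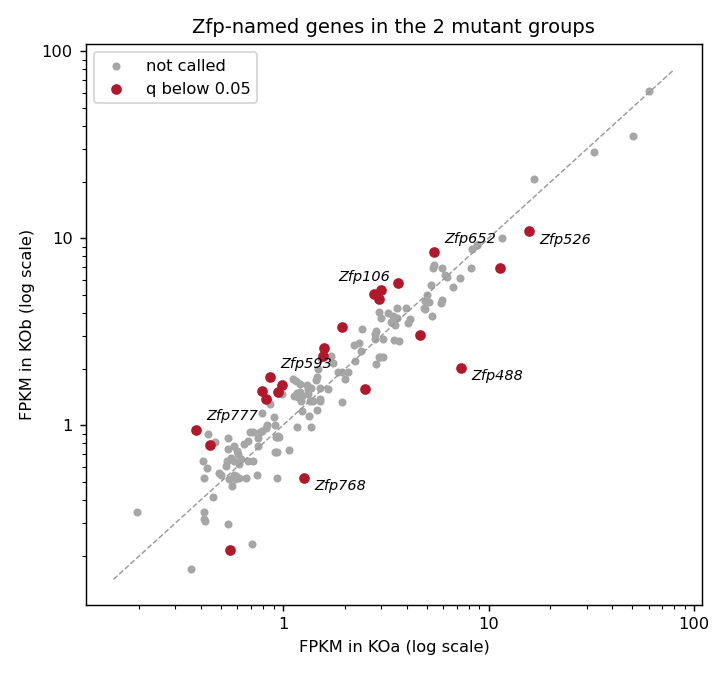
FPKM of the 168 members in KOb (y axis) and KOa (x axis), both on log scales, with 1 point per gene, red where q is below 0.05 between the mutants; the dashed line marks equal values. Most points lie near the line, and Zfp488, at 2.02 in KOb and 7.34 in KOa, lies farthest from it among the red points.

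Members sat on 19 chromosomes, with 36 on chromosome 7, 22 on chromosome 17 and 16 on chromosome 8. With a gap of at most 500 kb between neighbouring members, 59 of them formed 10 clusters of 3 or more, and 39 of these 59 were KRAB-like. Counts called in clusters stand beside 13.4% of all tested genes at the FPKM minimum higher and 15.7% lower in KOb against FFa. In KOa against FFa these shares were 8.29% and 14.9%, and clusters are too small to set against them. The largest cluster, 10 KRAB-like members on chromosome 17 (chr17:21008941-22867134 of mm10), held 0 called members in any comparison. Zfp160 and Zfp51 in it were higher in KOb against FFa at an unadjusted p below 0.05 by the authors' Cuffdiff test. The 6 KRAB-like members on chromosome 13 (chr13:67069398-67553152) held 0 called members as well. Their implied errors in KOa ran from 0.57 to 1.04, against a median of 0.39 over all tested genes. The median log2 ratios of these 2 clusters were 0.26 and 0.11 in KOb and 0.01 and 0.34 in KOa, against FFa.

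In the cluster on chromosome 9 (chr9:20468549-20595193) all 3 members, Zfp426, Zfp266 and Zfp846, were KRAB-like and higher in KOb. Zfp266 had 1.38 FPKM in KOb and 0.831 in KOa, against 0.749 in FFa, and its log2 ratios were 0.88 ± 0.42 in KOb and 0.15 ± 0.45 in KOa. Zfp846 had 0.704 FPKM in KOb and 0.604 in KOa, against 0.237 in FFa. Its log2 ratios were 1.57 ± 0.82 in KOb, which was called, and 1.35 ± 0.84 in KOa, which was not. Because Zfp846 became a member through the mutant groups alone, a higher mutant level was fixed by the choice of members. The cluster on chromosome 8 (chr8:69209046-69774911) was mixed. Zfp930 had 1.10 FPKM in KOb and 0.908 in KOa, against 0.504 in FFa, and rose in KOb (1.13 ± 0.58) beside Zfp869. Its neighbours Zfp963 (1.38 FPKM in KOb, 1.52 in KOa and 2.06 in FFa) and Zfp866 (1.34, 1.51 and 1.82) had lower values in both mutant groups and were not called, and 40.4% of the 50-base words of Zfp963 occur in another gene as well.

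The cluster of 9 members on chromosome 7 (chr7:127233443-127890970) held 2 members lower in KOb and 0 higher, and 0 called in KOa. Zfp689 is described above, and Zfp629 had 0.317 FPKM in KOb and 0.414 in KOa, against 0.622 in FFa (-0.97 ± 0.54 in KOb). Because Zfp629 reached the FPKM minimum in FFa alone, a lower mutant level was fixed by the choice of members. Zfp771 in the same cluster had 6.18 FPKM in KOb and 6.24 in KOa, against 4.10 in FFa, with log2 ratios of 0.59 ± 0.36 and 0.61 ± 0.36 that missed the threshold. Neighbouring members thus had ratios of both signs. On chromosome 6, Zfp777 fell in KOa, while the adjacent member Zfp746 had a log2 ratio of -0.10 ± 0.34.

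**Figure D4:**
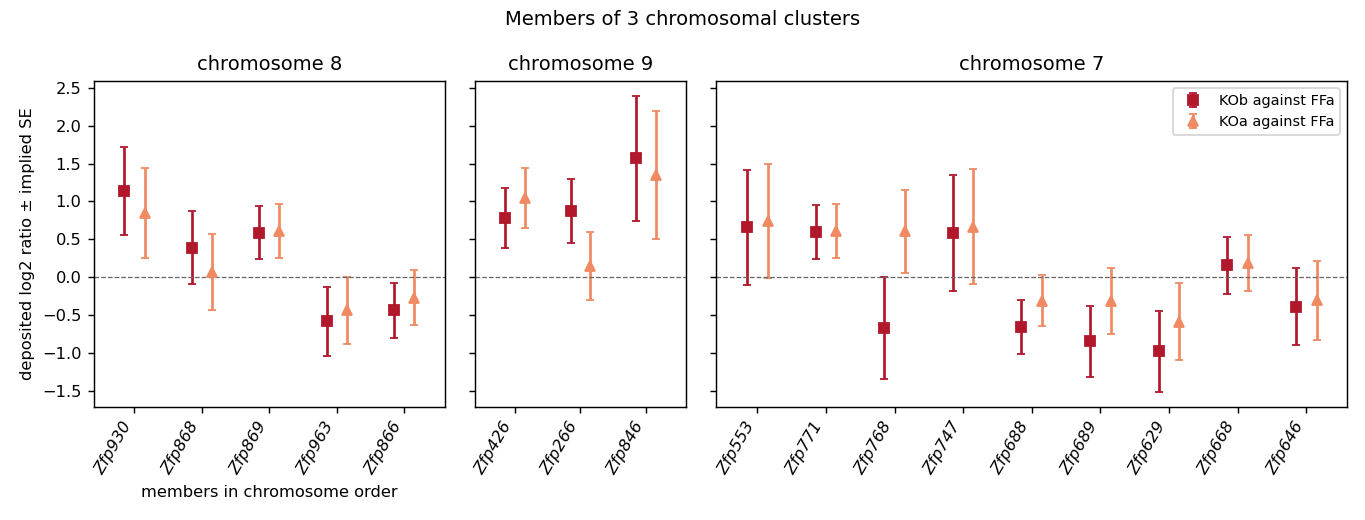
Deposited log2 ratios (y axis, with the implied standard error as bars) of the members of 3 clusters in chromosome order, with KOb against FFa as squares and KOa against FFa as triangles. All points of the chromosome 9 cluster lie above 0, from 0.15 to 1.57, while the clusters on chromosomes 8 and 7 hold points on both sides of 0. Zfp846, the chromosome 9 member at 1.57, passed the FPKM minimum through the mutant groups alone.

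A pair of the members that rose in both mutant groups are neighbours of the deleted gene. Zfp324 ends 50.3 kb and Zfp110 174 kb from Trim28 on chromosome 7. Within 500 kb of Trim28, 10 other genes reached 0.5 FPKM in a group. Zfp324 did so in the mutant groups alone, so a higher mutant level of this gene was fixed by that minimum. In KOb 3 of the 10 were higher and 1 lower than in FFa, and in KOa 2 were higher and 0 lower by the authors' Cuffdiff test, with 3 and 0 at an unadjusted p below 0.05. Over all tested genes at the FPKM minimum 13.4% were higher and 15.7% lower in KOb, and 8.29% and 14.9% in KOa, and 10 genes are too few to set against these shares. The 2 in KOa were Zfp324 and Zfp110, and KOb added Pla2g4c (4.02 FPKM in KOb against 2.71 in FFa, 0.57 ± 0.36) and the lower Lig1 (33.3 against 50.3, -0.60 ± 0.30). Closer to Trim28 than Zfp324 lie Zbtb45, on the side of Zfp324, and Chmp2a and Ube2m on the other side, none of them called. Zbtb45, at 14.4 kb, had 4.10 FPKM in KOb and 4.09 in KOa, against 3.72 in FFa, and Chmp2a, at 0.973 kb, had 77.3 and 87.7 against 92.4. All 3 groups came from animals homozygous for the floxed allele, with 1 to 4% of the gene undeleted in KOb and 5 to 8% in KOa. Any part of the allele or of its deletion in the levels of these neighbours was not tested.

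**Figure D5:**
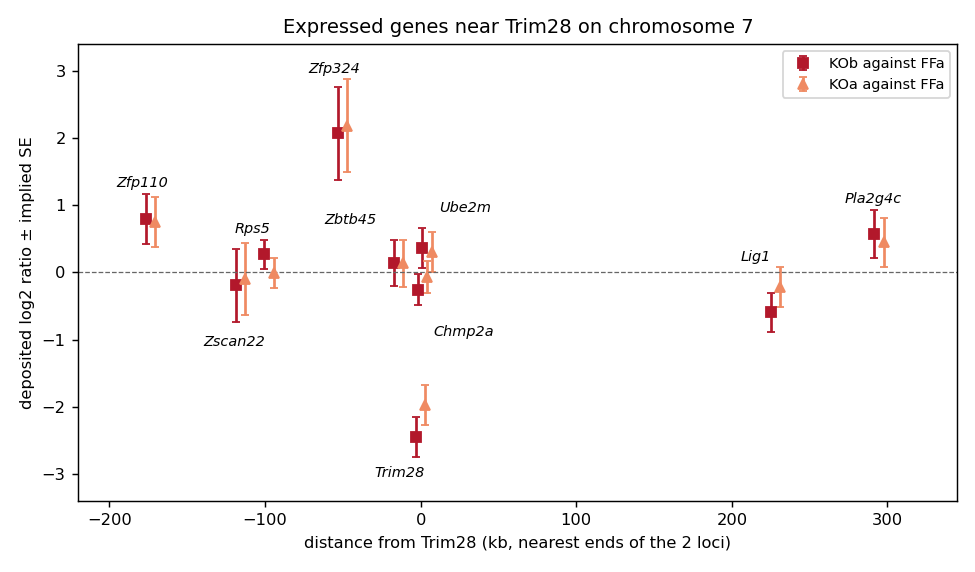
Deposited log2 ratios (y axis, with the implied standard error as bars) of expressed genes by distance from Trim28 in kb, with KOb against FFa as squares and KOa against FFa as triangles, drawn slightly apart; 6330408A02Rik, which shares the locus of Lig1, is left out. Zfp324 stands at 2.07 in KOb and 2.19 in KOa and Trim28 at -2.45 and -1.97, while Zbtb45, the gene drawn between them, stands at 0.14 in both. Zfp324 passed the FPKM minimum through the mutant groups alone.

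Zfp-named genes under the FPKM minimum numbered 172, of which 34 were tested in KOb against FFa. Of these 1 was higher, Zfp26 with 0.475 FPKM in KOb against 0.286 in FFa (0.73 ± 0.46), and 0 lower by the authors' Cuffdiff test, with 2 and 0 at an unadjusted p below 0.05. Other zinc finger families at 0.5 FPKM or more were counted in the same way. Over all tested genes at that minimum, 13.4% were higher and 15.7% lower in KOb against FFa. In KOa against FFa these shares were 8.29% and 14.9%. Of 26 tested Zbtb genes, 2 were higher and 4 lower in KOb against FFa, and of 27 in KOa 1 was higher and 2 lower. Of 10 Zkscan and Zscan genes, 1 was higher and 1 lower in KOb, and 0 and 1 in KOa. Of 12 Klf genes, 0 were higher and 4 lower in KOb, and 2 and 3 in KOa. Among 16 genes of TRIM28 partners other than Trim28, 3 were higher and 1 lower in KOb, and 2 and 2 in KOa. Setdb1, the gene of the methyltransferase recruited by TRIM28, had 17.6 FPKM in KOb and 9.90 in KOa, against 1.96 in FFa (3.16 ± 0.55 and 2.34 ± 0.55).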

How the data were processed

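Total RNA was treated with DNase during column extraction and made into libraries with the NuGEN Encore Complete kit, per the labels' protocols. TopHat2 2.0.8b, Bowtie2 2.1.0, Cuffdiff 2.1.1 and the build mm10 were used, per the submitters' processing notes. Not given in the sources used here are gene annotation, library scaling and strand use. The table that the authors deposited holds an FPKM per gene and group, a log2 ratio without pseudocount, a test statistic (a score), a p-value and a q-value for 3 comparisons. The 3 libraries of a group were pooled in it, so depth per library is unknown and no SD, interval or detection floor is given. The deposited q equals a Benjamini-Hochberg adjustment over all 31813 tested results, to within 5.27e-07, and 0.000619 is its lowest value.

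Members, lists and alternatives were chosen with earlier results of these data known. Named are, in each comparison, the 12 largest rises and falls among called members with at least 1 FPKM in the higher group, the 12 most abundant in FFa, members of the role lists or of clusters with 2 or more called members, and those next to the minimum; others are said to be named afterwards or stand in counts of few genes. Coding sequences of GENCODE M21 (GRCm38) were translated with Biopython 1.88 for all 168 members, 6 of them under a newer symbol, in place of the RefSeq proteins first planned, which were not used here. The KRAB search used 13 positions, and 50-base words of the longest-coding transcript were matched to all other genes. Both the search and the adjustment were tested on simulated data. Python 3.11.15, pandas 2.3.3, scipy 1.17.1 and matplotlib 3.10.9 were used. Alternatives are given in the closing section.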

Additional observations from a re-analysis of the deposited data

Results flagged for a closer look

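For 22 members the level differed between the TER119-negative KOb cells and the TER119-positive KOa cells, by the deposited test between these groups. No control was sorted as TER119-negative, so levels are compared here and not effects of the deletion. Of the members 8.93% were higher and 4.17% lower in KOb, beside 10.7% and 6.44% of all 9808 tested genes at the FPKM minimum. The 7 lower in KOb had log2 ratios, KOb over KOa, as follows: Zfp488 (-1.86), Zfp473 (-1.36), Zfp768 (-1.27), Zfp414 (-0.71), Zfp341 (-0.69), Zfp628 (-0.60) and Zfp526 (-0.54). The 15 higher in KOb had these log2 ratios: Zfp445 (0.58), Zfp652 (0.64), Zfp639 (0.66), Zfp828 (0.66), Zfp692 (0.68), Zfp808 (0.71), Zfp266 (0.73), Zfp451 (0.73), Zfp330 (0.79), Zfp106 (0.81), Zfp318 (0.82), Zfp259 (0.86), Zfp932 (0.94), Zfp593 (1.06) and Zfp777 (1.32). Zfp473 reached the FPKM minimum in KOa alone and Zfp318 in KOb alone, so the sign of their differences was fixed by the choice of members. The sort gate and the degree of deletion differ together between these groups and cannot be told apart.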

How the results depend on the processing

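No paired analysis was possible because the deposited table holds 1 value per group and none per library; for the same reason no replicate could be left out. With a q threshold of 0.01, 6 members were higher in KOa against FFa, 12 higher and 5 lower in KOb against FFa, and 3 higher and 1 lower in KOb against KOa. With p taken from the statistic under a normal distribution, 3 were higher and 3 lower in KOa against FFa, 4 higher (Zfp106, Zfp324, Zfp954 and Zfp959) and 1 lower (Zfp36) in KOb against FFa, and 0 higher and 1 lower (Zfp488) in KOb against KOa. Adjustment within each comparison, an FPKM minimum of 1 or none, letter suffixes, and leaving out the 19 members with over 10% of shared words (added after seeing the data) kept these counts within 1.5 times. Of KRAB-like members, q below 0.01 left 4 higher and 1 lower in KOa against FFa, 8 higher and 0 lower in KOb against FFa, and 0 higher in KOb against KOa; the normal distribution left 2 higher and 1 lower, 3 higher and 0 lower, and 0 higher (both added after seeing the data). Leaving out shared words left 3 higher in KOb against KOa. With 7 or 11 positions or an FPKM minimum of 1 the KRAB counts stayed within 1.5 times. For all members in KOb against FFa the median log2 ratio was 0.11, and 0.04 with an FPKM minimum of 1. In KOa against FFa it was -0.01, and 0.04 when centred on the median of genes with at least 1 FPKM in both groups. Its sign thus depends on the scaling. With gaps of 250 and 1000 kb there were 11 and 13 clusters. The low levels of most members limit precision.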
